A study of Mus musculus with 6 samples.

Results

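The nuclear genes for the subunits of oxidative phosphorylation were compared between 2 mouse malignant mesothelioma cell lines. Members were taken by gene symbol: every gene whose symbol follows the naming of the subunits of complex I (Nduf), complex II (Sdh), complex III (Uqcr), complex IV (Cox4 to Cox8) or ATP synthase, also called complex V (Atp5). The rule found 81 of the 18193 genes measured, read by 164 probe sets that the array's annotation assigns to 1 gene. Complex I had 35 members, complex II 4, complex III 8, complex IV 17 and complex V 17. The brightest of a gene's probe sets, averaged over the 6 arrays, stood for the gene, and the other 83 probe sets served as a check.

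Malignant mesothelioma is a tumour of the cells lining the pleura and peritoneum. AB1 is a line from the BALB/c strain, used at passage 40, and AC29 a line from the CBA strain, used at passage 60; the labels give both as female and 6 to 8 weeks old. Each line was grown in 3 flasks in RPMI 1640 medium with 5% foetal calf serum to 80% confluency, and the RNA of each flask was hybridised to 1 Affymetrix array, so that n = 3 per line throughout. Neither line was treated. Strain, passage and line coincide and cannot be told apart, and since the replicates are flasks of 1 line the p-values measure the spread between flasks and arrays only.

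In the inner mitochondrial membrane, complexes I and II pass electrons from NADH and succinate to ubiquinone, complex III passes them to cytochrome c, and complex IV passes them to oxygen. Complexes I, III and IV pump protons as they do so, and ATP synthase lets the protons flow back to make ATP. Most subunits are encoded in the nucleus, a few in mitochondrial DNA, and several subunits of complex IV come as alternative isoforms with tissue-biased use. These genes are active in most tissues.

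The deposited values are log2 signals. The median over all probe sets was 5.76 to 5.81 on the 6 arrays, and between arrays of a line all genes correlated at 0.995 to 0.998 (Pearson's r, across genes, which are not independent replicates). A gene counted as above background in a line when at least 1 of its 3 arrays passed a floor of 6.07, the 95th percentile of 86 probe sets for olfactory, vomeronasal and taste receptors. Of the 81 members, 75 were above this floor in both lines, 1 (Cox7c) in AC29 only, on replicate 14 alone, and 5 in neither line. The 5 were Ndufb4, Cox4i2, Cox6b2, Cox7a1 and Cox7b2. By signal, 70 of 81 members were among the 4549 brightest genes, whose mean was above 8.98. This rank of probe set signals serves only to choose genes of high signal and does not rank levels of RNA. The members lay higher still, with array medians of 11.64 to 11.9 against 10.15 to 10.22 for the brightest genes. Shares set against the brightest genes are therefore not matched for signal. One array stood apart, for these genes more than for others. On AC29 replicate 14, 56 of the 76 members above the floor had their highest AC29 signal (73.7%, against 33.0% of all genes above the floor), so that calls lost or gained without this array are named below. Of a list of 10 mesothelial marker genes, 8 passed the 2-fold rule given below and were higher in AC29; Bnc1, Krt8, Upk1b, Upk3b and Wt1 were not above the floor in AB1, while Msln, which encodes mesothelin, was measured in both lines (9.67 ± 0.10 in AB1 and 10.41 ± 0.23 in AC29, SD, n = 3).

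Few subunit genes differed much between the lines: the 3 that did were in complexes I and IV and lay on both sides. By a rule of adjusted p under 0.05 (limma's moderated test, Benjamini-Hochberg over all genes) and a difference of at least 2-fold, 3 of 81 members passed, which is 3.7%. The same rule passed 10.9% of all genes, 5.12% higher in AC29 and 5.82% higher in AB1, 16.4% of the genes above the floor and 11.5% of the brightest genes. Ndufv3 was higher in AC29, and Ndufa3 and Cox5b were higher in AB1. By adjusted p alone, 36 members passed (44.4%), against 39.1% of all genes, 55.2% of the genes above the floor and 58.4% of the brightest genes. AC29 had the higher signal for 23, where the share was 19.1% of all genes and 29.4% of the brightest, and AB1 for 13, where the shares were 20.0% and 28.9%. The count of 36 fell to 21 without AB1 replicate 4, 19 without AB1 replicate 6 and 23 without AC29 replicate 13. In the same fits the share of all genes fell from 39.1% to 33%, 33.4% and 35.5%. Of these 36, the 3 dim members Ndufb4, Cox6b2 and Cox7a1 were above the floor in neither line. For 50 of 81 members no AB1 array fell within the AC29 range or the reverse, against 50.1% of all genes. Above the floor this was so for 47 of 76 members and for 7719 of 11647 genes. Of the 4549 brightest genes, 3253 were apart in this way.

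The size of the differences was small. The median difference, AC29 minus AB1, was 0.08 log2 units over the members and -0.0047 over all genes. Of the 76 members above the floor, 68 (89.5%) differed by less than 0.5 log2 units, against 62.3% of all genes above the floor and 63.6% of the brightest genes. The 95% confidence interval of the difference lay within 2-fold on either side for 72 of these 76 members, whereas it did so for 75.5% of genes above the floor and 79.8% of the brightest genes. These shares describe the members and carry no test.

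**Figure D1:**
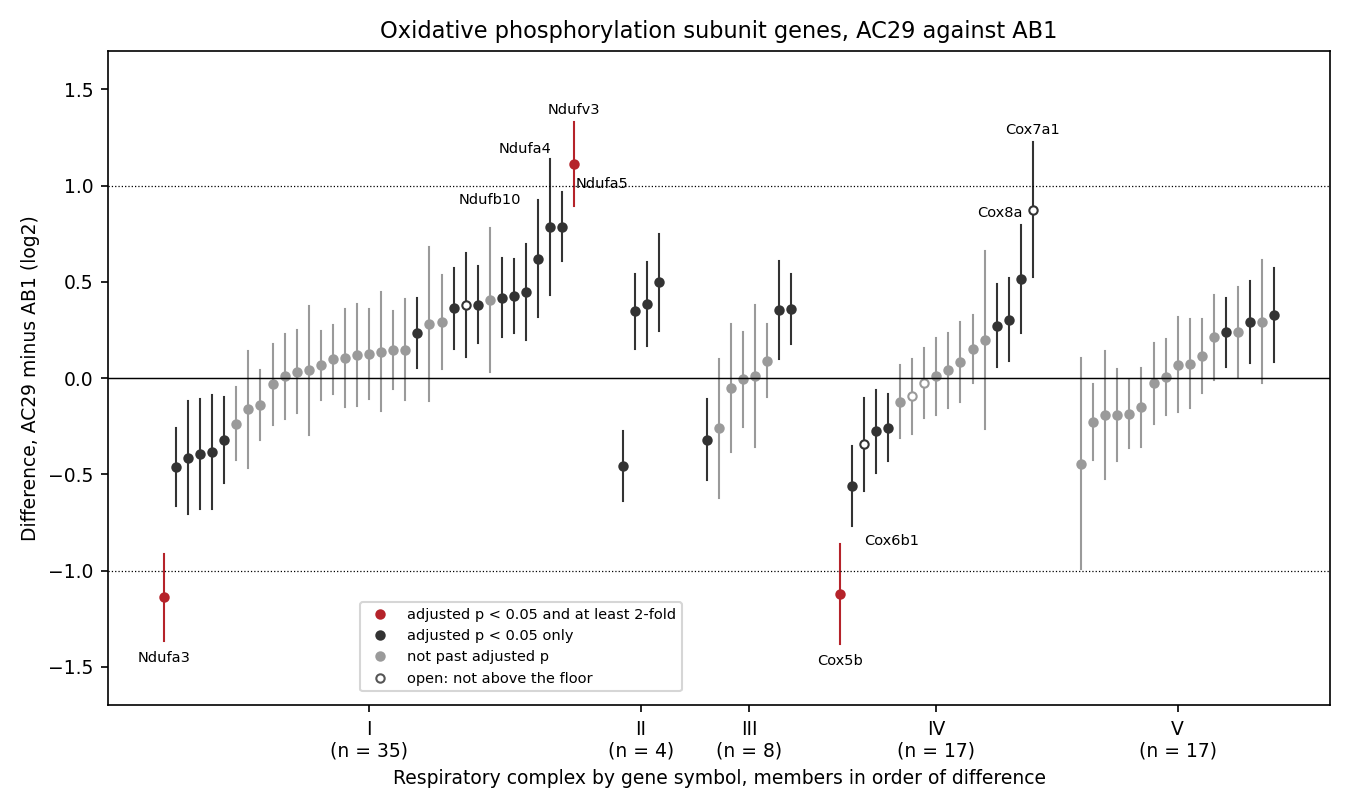
Difference in log2 signal, AC29 minus AB1, for each of the 81 members by complex, ordered within a complex, with 95% confidence intervals from limma (n = 3 arrays per line); dotted lines mark 2-fold. Ndufv3, Ndufa3 and Cox5b lie past 2-fold, most members lie within 0.5 of 0, and open points are members above the floor in neither line.

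Ndufv3 encodes an accessory subunit of the flavoprotein arm of complex I, where NADH is oxidised. Its signal was 10.43, 10.42 and 10.20 on the AB1 arrays (replicates 4, 5 and 6) and 11.40, 11.43 and 11.55 on the AC29 arrays (replicates 13, 14 and 15). All AC29 arrays were above all AB1 arrays, by more than the spread within either line. The difference was 1.11 log2 units (SE 0.096, 95% interval 0.89 to 1.33), a 2.16-fold higher signal in AC29, with an adjusted p of 1.5e-05 by limma. Ndufv3 has 1 probe set here, so that no second reading was available.

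Ndufa3, an accessory subunit of the membrane part of complex I, went the other way. Its signal was 12.02, 11.95 and 11.95 in AB1 and 10.71, 11.02 and 10.78 in AC29, with no overlap. The difference was -1.14 (SE 0.099, interval -1.36 to -0.91), a 2.2-fold higher signal in AB1, with an adjusted p of 1.6e-05 by limma. A second bright probe set of Ndufa3 gave -1.18, and the remaining one lay near the floor and gave -0.13.

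Cox5b, a zinc-binding subunit of complex IV on the matrix side, was also higher in AB1. Its signal was 13.23, 13.20 and 13.10 in AB1 and 11.91, 12.30 and 11.95 in AC29. Every AB1 array exceeded every AC29 array, and AC29 replicate 14 was the highest of its line. The difference was -1.12 (SE 0.115, interval -1.38 to -0.86), a 2.18-fold higher signal in AB1, with an adjusted p of 4.7e-05 by limma. The other 3 bright probe sets of Cox5b gave -1.16, -1.03 and -1.29, and the 2 dim ones gave -0.08 and -0.02. The same 3 genes passed the rule when any 1 array was left out. Their intervals all reach across 2-fold, and none of the 3 passed limma's test against a 2-fold difference (treat).

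**Figure D2:**
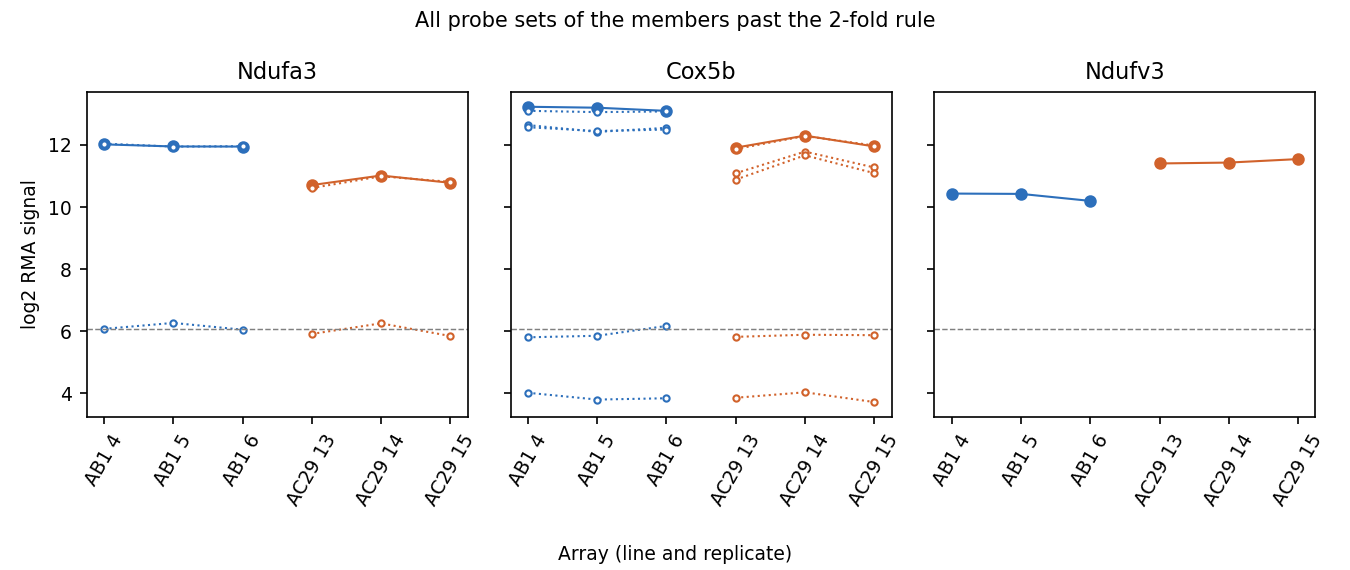
Log2 signal of every probe set of Ndufa3, Cox5b and Ndufv3 on the 3 AB1 arrays (blue) and the 3 AC29 arrays (orange); filled points and solid lines are the probe set used, open points and dotted lines the others, and the dashed line is the floor of 6.07. The bright probe sets of Ndufa3 and Cox5b separate the lines in the same direction, and those near or under the floor do not separate them.

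The promoter windows of these 3 genes are printed because they are the members with the largest difference, and they were searched for 3 motifs often found at nuclear genes for the respiratory chain. Each window runs from 250 bases before the start of transcription to 50 bases after it, as RefSeq places it on GRCm38.p6, and all 3 lie on the plus strand: chr7:3617123-3617422 for Ndufa3, chr1:36691237-36691536 for Cox5b and chr17:31519865-31520164 for Ndufv3. Capitals mark a motif match.
Ndufa3: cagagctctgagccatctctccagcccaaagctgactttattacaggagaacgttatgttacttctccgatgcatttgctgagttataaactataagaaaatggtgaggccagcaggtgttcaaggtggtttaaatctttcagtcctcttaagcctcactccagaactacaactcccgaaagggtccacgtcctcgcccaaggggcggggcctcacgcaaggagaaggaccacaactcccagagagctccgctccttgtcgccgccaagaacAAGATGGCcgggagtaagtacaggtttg
Cox5b: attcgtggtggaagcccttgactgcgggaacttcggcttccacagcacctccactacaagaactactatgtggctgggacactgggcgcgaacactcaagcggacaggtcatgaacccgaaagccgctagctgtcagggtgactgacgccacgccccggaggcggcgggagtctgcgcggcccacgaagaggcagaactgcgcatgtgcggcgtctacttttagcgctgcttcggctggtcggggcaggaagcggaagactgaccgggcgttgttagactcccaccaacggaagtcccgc
Ndufv3: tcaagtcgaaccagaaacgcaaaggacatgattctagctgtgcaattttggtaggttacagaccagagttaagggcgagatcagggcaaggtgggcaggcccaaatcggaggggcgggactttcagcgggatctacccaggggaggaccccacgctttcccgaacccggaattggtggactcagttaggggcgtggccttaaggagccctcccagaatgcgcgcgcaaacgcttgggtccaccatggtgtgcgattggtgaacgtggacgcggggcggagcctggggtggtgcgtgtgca
The motifs were the core of the NRF1 site (GCATGCGC), of the ETS site that NRF2, also called GABP, binds (CCGGAAG) and of the YY1 site (AAGATGGC), each sought on both strands; they do not overlap one another in these windows. Ndufa3 had 1 match, to the YY1 core, which begins at base 23 counting the start of transcription as base 1. Cox5b and Ndufv3 had no match to these letters. RefSeq windows were matched for 66 of the 81 members. The NRF1 core was in 13.6% of them against 2.80% of the windows of all 27025 genes, the ETS core in 24.2% against 9.12% and the YY1 core in 12.1% against 2.88%. The members' windows were also richer in G and C, with a median of 58.5% against 52.7%. A match is a description of the letters, and binding was not measured.

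In complex I, 17 of 35 members (48.6%) passed adjusted p alone, 11 higher in AC29 and 6 in AB1, with a median difference of 0.12. The count of 17 fell to 11 without AB1 replicate 4 and to 10 without AB1 replicate 6. Beside the counts by complex, 39.1% of all genes, 55.2% of those above the floor and 58.4% of the brightest passed. After Ndufv3, the largest differences towards AC29 belonged to Ndufa5, Ndufa4 and Ndufb10. Ndufa5, an accessory subunit of the peripheral arm, read 10.95, 11.03 and 10.93 in AB1 and 11.73, 11.80 and 11.73 in AC29. The lines were apart on every array, and the difference was 0.79 (SE 0.080, adjusted p 4.4e-05 by limma). A second bright probe set of Ndufa5 gave 0.67. Ndufa4, named after complex I but now counted with complex IV, read 11.86, 11.64 and 11.85 in AB1 and 12.28, 12.92 and 12.50 in AC29. It did not overlap between lines, and differed by 0.78 (SE 0.155, adjusted p 0.003 by limma). Ndufb10, an accessory subunit of the membrane arm, differed by 0.62 (SE 0.135, adjusted p 0.005 by limma), with 10.59 ± 0.07 in AB1 and 11.21 ± 0.28 in AC29. Ndufa4l2, the paralogue of Ndufa4 known as a hypoxia-responsive gene, stayed close to the floor at 6.76 ± 0.14 and 6.89 ± 0.12 and did not pass (difference 0.12).

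Towards AB1, Ndufa3 was followed by Ndufc2, an accessory subunit of the membrane arm, which read 12.32, 12.41 and 12.45 in AB1 and 12.06, 11.88 and 11.86 in AC29 (difference -0.46, SE 0.090, adjusted p 0.0026 by limma). The lines did not overlap for it. Ndufc1, also of the membrane arm, was higher in AC29 by 0.43 (SE 0.085, adjusted p 0.0031 by limma). Ndufb1 was higher in AB1 (difference -0.41, adjusted p 0.03 by limma). The core subunits, which carry the electron path and are shared with bacteria, also went both ways. Ndufs3 (0.42) and Ndufv1, which binds the flavin (0.23), were higher in AC29, but Ndufv1 did not pass without AC29 replicate 14 (0.21, adjusted p 0.0846 by limma). Ndufv2 (-0.39) and Ndufs8 (-0.32), which hold iron-sulphur clusters, were higher in AB1. Ndufs1 (0.07) and Ndufs7 (0.03) did not pass, with intervals of -0.11 to 0.24 and -0.18 to 0.25. The smallest differences of the complex were those of Ndufa1 (0.0091, interval -0.21 to 0.23) and Ndufs7.

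Complex II, which is succinate dehydrogenase of the tricarboxylic acid cycle, has 4 subunits, and all 4 passed adjusted p alone, in both directions. All 4 were among the brightest genes, of which 58.4% passed. Sdhb, the iron-sulphur subunit, was higher in AB1: it read 11.88, 11.85 and 11.83 there and 11.38, 11.47 and 11.33 in AC29 (difference -0.46, SE 0.081, adjusted p 0.0015 by limma). Sdhd and Sdhc, the membrane anchors, were higher in AC29. Sdhd read 11.21, 11.18 and 11.15 in AB1 and 11.51, 11.91 and 11.61 in AC29 (difference 0.50, SE 0.111, adjusted p 0.0059 by limma), and Sdhc differed by 0.35 (SE 0.086, adjusted p 0.0099 by limma). The lines did not overlap for any of these, and the second probe sets of Sdhd and Sdhc gave 0.34 and 0.25. Sdha, the flavoprotein, read 10.53, 10.55 and 10.51 in AB1 and 10.98, 10.74 and 11.02 in AC29 (difference 0.39, SE 0.096, adjusted p 0.011 by limma). Another bright probe set of Sdha gave -0.14, which did not pass, so that the reading of Sdha depended on the probe set. All 4 passed again with any 1 array left out.

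In complex III, 3 of 8 members passed adjusted p alone (37.5%, against 58.4% of the brightest genes), and the median difference was 0.0015. Only 1 passed without AB1 replicate 4 or without AB1 replicate 6. Uqcrb, which binds near the ubiquinone site, read 13.44, 13.47 and 13.37 in AB1 and 13.80, 13.73 and 13.81 in AC29 (difference 0.36, SE 0.080, adjusted p 0.006 by limma). Uqcrh, the hinge protein next to cytochrome c1, was higher in AC29 by 0.35 (SE 0.112, adjusted p 0.033 by limma). Uqcrc1, a core protein facing the matrix, was higher in AB1 (11.70 ± 0.10 against 11.38 ± 0.10, difference -0.32, adjusted p 0.023 by limma). None of the 3 overlapped between lines. The other core protein, Uqcrc2 (-0.0076, interval -0.25 to 0.24), and Uqcrq (0.01, interval -0.36 to 0.38) had the smallest differences, and the Rieske iron-sulphur protein Uqcrfs1 read 11.55 ± 0.03 and 11.64 ± 0.09 and did not pass.

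In complex IV, 9 of 17 members passed adjusted p alone (52.9%, against 39.1% of all genes and 58.4% of the brightest). AC29 had the higher signal for 4 and AB1 for 5, and the median difference was 0.0094. The count of 9 fell to 5 without AB1 replicate 4 or AC29 replicate 14, and to 4 without AB1 replicate 6 or AC29 replicate 13. Cox6b1, on the intermembrane side, had the largest difference towards AB1 after Cox5b: it read 13.10, 13.24 and 13.08 in AB1 and 12.56, 12.69 and 12.49 in AC29, without overlap. The difference was -0.56 (SE 0.091, adjusted p 9.2e-04 by limma), and a second bright probe set gave -0.55. Cox8a, the ubiquitous form of the small subunit 8, read 11.69, 11.41 and 11.50 in AB1 and 11.81, 12.16 and 12.17 in AC29. The difference was 0.51 (SE 0.123, adjusted p 0.0086 by limma), with 0.50 from a second bright probe set. Cox5a, another subunit on the matrix side, was higher in AC29 by 0.27 (SE 0.095, adjusted p 0.048 by limma), a call that was lost without any 1 of 5 arrays, AC29 replicate 14 among them (adjusted p 0.0546 by limma).

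Several complex IV subunits exist as a widely used and a muscle-type or testis-type isoform. The widely used forms read here were above the floor in both lines. Cox7b, the counterpart of Cox7b2, was not among the members and was not read. Cox4i1 read 13.04 ± 0.05 in AB1 and 13.12 ± 0.12 in AC29, Cox6a1 13.17 ± 0.04 and 13.31 ± 0.02, and neither passed; Cox7a2 read 13.02 ± 0.06 and 13.32 ± 0.14 and was higher in AC29 (difference 0.30, adjusted p 0.032 by limma), though not without AC29 replicate 14 (0.23, adjusted p 0.0749 by limma). Cox6c differed by 0.0094 (interval -0.19 to 0.21). Among the alternative forms, Cox4i2, Cox6b2, Cox7a1 and Cox7b2 were above the floor in neither line. Cox7a1 passed adjusted p alone all the same: its signal was 4.79, 5.02 and 4.53 in AB1 and 5.62, 5.92 and 5.42 in AC29, apart on all arrays but under the floor, and no fold is given. The muscle forms Cox6a2 (7.59 ± 0.03 and 7.33 ± 0.02, difference -0.26, adjusted p 0.026 by limma) and Cox8b (6.34 ± 0.13 and 6.06 ± 0.08, difference -0.28, adjusted p 0.045 by limma) were higher in AB1. Without AC29 replicate 14, Cox8b did not pass (-0.28, adjusted p 0.0647 by limma). It lay at the floor in AC29, where its arrays read 5.98, 6.07 and 6.13. The testis form Cox8c read 7.88 ± 0.10 and 7.92 ± 0.03. A second probe set of Cox8c (5.85 in AB1 and 5.85 in AC29) was under the floor. The second probe set of Cox6a2 (4.46 in AB1 and 4.37 in AC29) was under it too. Beside these, of 15 skeletal and heart muscle markers 10 were above the floor in neither line, among them Myh1, Myh7 and Myod1, and Ckm read 6.36 ± 0.14 and 6.34 ± 0.06; Actn3 and Tnnt2 were higher in AC29 by the 2-fold rule. Of 6 germ cell markers, 4 were not above the floor. Cox7a2l, which belongs to the supercomplex machinery rather than to a single enzyme, read 11.14 ± 0.08 and 11.02 ± 0.05 and did not pass.

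In complex V, 3 of 17 members passed adjusted p alone (17.6%, against 58.4% of the brightest genes). All 3 were higher in AC29, and the median difference over the complex was 0.07. At most 1 passed when AB1 replicate 4, 5 or 6 or AC29 replicate 13 was left out. Atp5j2 (subunit f) differed by 0.33 (SE 0.107, adjusted p 0.037 by limma), Atp5k (subunit e) by 0.29 (SE 0.094, adjusted p 0.035 by limma) and Atp5g3 by 0.24 (SE 0.079, adjusted p 0.041 by limma). Subunits e and f sit in the membrane part of the enzyme, and Atp5g3 is 1 of the genes that encode the same mature subunit of the rotating c ring. The other c ring genes, Atp5g1 (0.0062, interval -0.19 to 0.20) and Atp5g2 (-0.19, interval -0.43 to 0.05), did not pass. A further Atp5g2 probe set, near the floor at 5.38 in AB1 and 6.02 in AC29, gave 0.64, opposite in sign to the bright one. The subunits of the catalytic head did not pass. Atp5a1, subunit alpha, read 12.89 ± 0.05 and 12.86 ± 0.13 (difference -0.03, interval -0.24 to 0.18), and Atp5b, subunit beta, read 13.64 ± 0.06 and 13.49 ± 0.11 (difference -0.15, interval -0.36 to 0.05).

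AC29 replicate 14 moved these values. On it the members' signal exceeded the mean of the other AC29 arrays by a median of 0.21, against -0.03 for all genes above the floor and -0.01 for the brightest genes. The array also differed more widely at other genes: 37.5% of all genes above the floor lay more than 0.2 from that mean. On replicates 13 and 15 this was so for 26.0% and 27.0%. Of the members, it was so for 53.9% on replicate 14 and for 27.6% on each of the others. The members' excess was unequal. It was largest for Atp5e (subunit epsilon of ATP synthase, 1.02), followed by Cox7c, whose probe set is at background (0.75), Ndufs4 (0.71), Ndufb2 (0.65) and Uqcrq (0.64). By complex, the median excess was 0.26 in complex I, 0.07 in complex II, 0.35 in complex III, 0.16 in complex IV and 0.25 in complex V. Sdha (-0.26) and Atp5d (-0.16) read below the other AC29 arrays instead. The members' median SD was 0.051 in AB1 and 0.14 in AC29, and over the brightest genes 0.063 and 0.13. The 18S ribosomal RNA control probe sets also read highest on this array, at 8.54 (3′), 9.0 (5′) and 8.53 (middle), against 7.54 to 8.18, 6.80 to 7.86 and 7.43 to 7.91 on the others. The 3′ minus 5′ differences of the Gapdh (-0.14) and Actb (0.27) controls lay within the range of the other arrays, -0.16 to -0.10 and 0.12 to 0.32. The part of RNA or labelling quality in the excess was not tested.

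**Figure D3:**
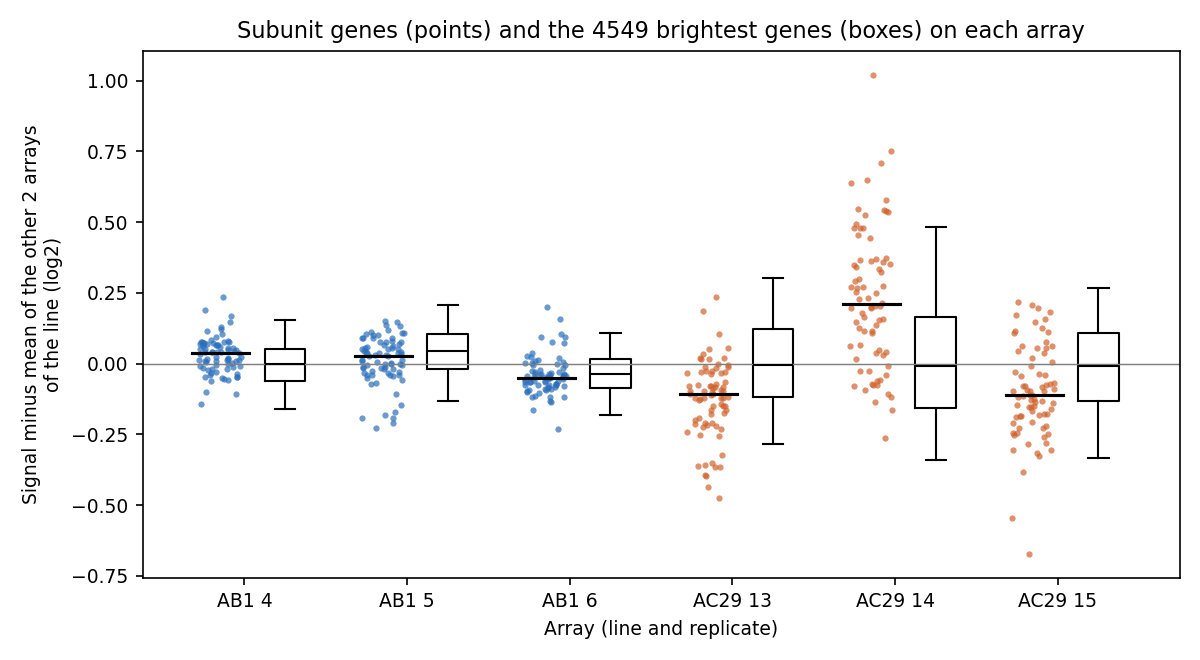
Signal of each of the 76 members above the floor minus the mean of the other 2 arrays of its line (points, with the median as a bar), beside the same for the 4549 brightest genes (boxes from the lower to the upper quartile, whiskers at the 5th and 95th percentiles). On AC29 replicate 14 the members' median is 0.21 while that of the brightest genes is -0.01.

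Without this array the tilt towards AC29 was not seen. The members' median difference was -0.0030, with 39 members above 0 and 42 below, in place of 51 and 30. Of the 33 members that then passed adjusted p alone, 16 were higher in AC29 and 17 in AB1, and 27 of them were among the 36 called with all arrays. Of all genes, 39.1% passed with all arrays and 39.3% without this array. The 6 members that passed only without it, Atp5e, Atp5g2, Atp5md, Ndufa13, Ndufb9 and Uqcr11, were all higher in AB1. Atp5e is the clearest example. It read 11.76, 11.67 and 11.66 in AB1 and 10.93, 11.93 and 10.89 in AC29: replicate 14 was the highest of the 6 arrays, and the other AC29 arrays were the lowest. Its difference was -0.44 (adjusted p 0.19 by limma) with all arrays and -0.78 (adjusted p 1e-04 by limma) without replicate 14. Of the 9 members that passed only with all arrays, 7 were higher in AC29 (Atp5j2, Atp5k, Cox5a, Cox7a2, Ndufb4, Ndufv1 and Uqcrh) and 2 in AB1 (Cox6b2 and Cox8b). The differences of Cox5a (0.27 with all arrays, 0.29 without replicate 14) and Cox8b (-0.277 and -0.283) did not shrink, while those of the rest did. The fit without replicate 14 also had fewer AC29 arrays. Complex V thus had 3 genes called towards AC29 with all arrays, and 1 towards AC29 (Atp5g3) and 3 towards AB1 without replicate 14. The medians of complexes III and V were -0.16 and -0.0083 without it, and those of complexes I, II and IV were 0.04, 0.36 and -0.04. No member that passed adjusted p alone with all arrays changed sign.

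**Figure D4:**
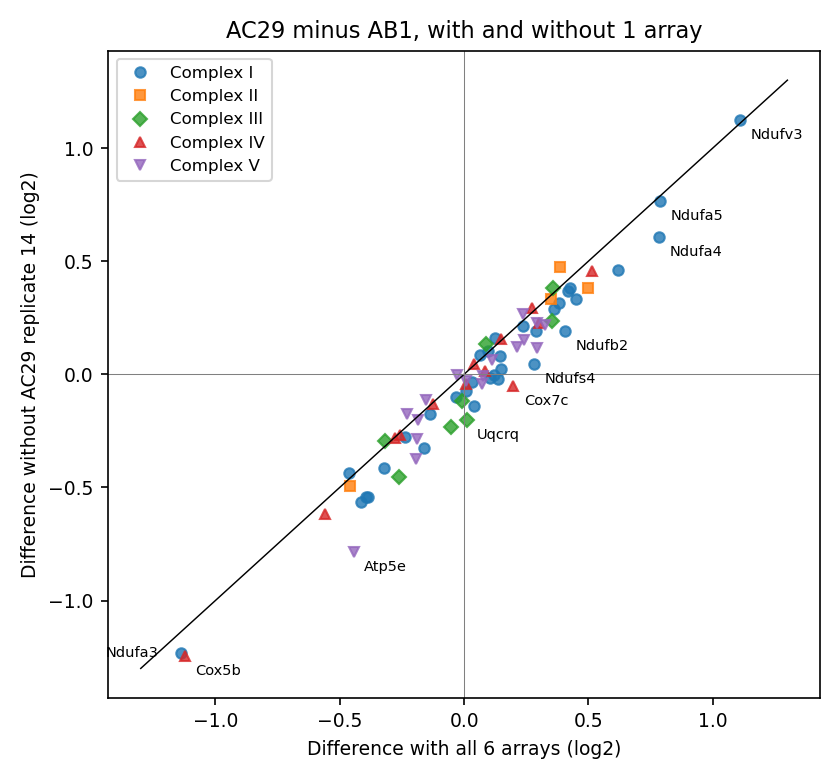
Difference in log2 signal, AC29 minus AB1, with all 6 arrays against the difference without AC29 replicate 14, for the 76 members above the floor; the diagonal is equality. Most points lie below the diagonal, Atp5e by the largest distance (-0.44 and -0.78), while Ndufv3, Ndufa3 and Cox5b stay past 1 on both axes.

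With each array left out in turn, 19 members passed adjusted p alone every time, 14 higher in AC29 and 5 in AB1. Every fit except the one without AC29 replicate 14 kept that array, so the split of the 19 is not free of it. In the fit without it, 16 of the members called were higher in AC29 and 17 in AB1. Of the 19, those higher in AB1 were Ndufa3, Cox5b, Cox6b1, Ndufc2 and Sdhb. Those higher in AC29 were Ndufv3, Ndufa5, Ndufa4, Ndufb10, Ndufb6, Ndufc1, Ndufs3, Ndufa8, Cox8a, Cox7a1, Sdha, Sdhc, Sdhd and Uqcrb. Of these, Cox7a1 was above the floor in neither line, and the reading of Sdha depended on the probe set. The share of all genes that passed every time was not counted. None of the 19 was in complex V, and every other member called here by adjusted p alone was lost without at least 1 array.

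Other probe sets of the same genes mostly gave the same direction. Of 69 other probe sets above the floor, from 44 genes, 58 had the sign of the one used. For members past adjusted p alone, 30 of 31 others in the brightness range of the 4549 brightest genes did so, the exception being Sdha. The median gap between the 2 readings of a gene in that range was 0.06, and the largest was 0.52. A dim probe set of Ndufs4 gave 1.46, from 4.72 in AB1 to 6.18 in AC29, against 0.28 for the bright one. A further 9 probe sets carry several symbols of which 1 meets the rule, and were not assigned to a member. They include the bright probe sets for Ndufb4 and its near-identical copies (0.12 and 0.13) and that for Ndufs6 and Ndufs6b, which read 10.06, 9.92 and 9.93 in AB1 and 10.48, 11.34 and 10.57 in AC29 (difference 0.83, with replicate 14 the highest). For Ndufb4 and Cox7c the probe sets assigned to 1 gene are at background and give no reading of the gene's level.

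Lists of other genes that build, feed and maintain the chain held 111 measured genes, of which 9 passed the 2-fold rule (8.11%, against 10.9% of all genes), 3 higher in AC29 and 6 in AB1, and 52 passed adjusted p alone (46.8%, against 39.1% of all genes, 55.2% of the genes above the floor and 58.4% of the brightest). The difference between the lists and the subunits was not tested. Of 15 electron carriers, ubiquinone synthesis genes and subunits outside the naming rule, 8 passed adjusted p alone, 6 towards AC29 and 2 towards AB1. Etfdh, which passes electrons from fatty acid oxidation to ubiquinone, was higher in AC29 by 1.02 (SE 0.099, adjusted p 3.4e-05 by limma), and fell just short of 2-fold without AB1 replicate 6 or AC29 replicate 13 or 15 (0.97 to 0.98). Coq2, Coq5 and Coq7, enzymes of ubiquinone synthesis, were higher by 0.61, 0.63 and 0.59, and Pdss2, for its side chain, was higher in AB1 (-0.80).

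Assembly factors went both ways. For complex I, 4 of 16 were higher in AC29 and 4 in AB1, and Acad9 was the only one past 2-fold: it read 9.39, 9.20 and 9.35 in AB1 and 7.81, 8.03 and 7.90 in AC29 (difference -1.40, SE 0.096, adjusted p 3e-06 by limma). For complexes II and III, 5 of 10 passed, and the 2 past 2-fold both help to fit the iron-sulphur clusters of Sdhb. Sdhaf1 was higher in AB1 (8.78 ± 0.12 against 7.65 ± 0.20, difference -1.12, adjusted p 5.3e-05 by limma) and Sdhaf3 in AC29 (6.78 ± 0.22 against 7.90 ± 0.29, difference 1.12, adjusted p 4.2e-04 by limma), where it fell short of 2-fold without AC29 replicate 14 (0.95). For complex IV, 11 of 19 passed, 4 higher in AC29 and 7 in AB1. Cox20, a chaperone of a mitochondrially encoded subunit, was past 2-fold (10.45 ± 0.08 in AB1 and 9.21 ± 0.08 in AC29, difference -1.24, adjusted p 3.9e-06 by limma), and the copper chaperone Cox17 was higher in AB1 by a smaller amount (-0.63). For complex V, 2 of 5 passed: Atpaf1 (0.53), an assembly factor, and Atpif1 (-0.40), the inhibitor of ATP hydrolysis.

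Of 20 genes of the tricarboxylic acid cycle and pyruvate entry, 8 passed adjusted p alone, 4 in each direction. Mpc1, a subunit of the mitochondrial pyruvate carrier, read 10.39, 10.43 and 10.35 in AB1 and 11.88, 12.04 and 11.85 in AC29 (difference 1.53, SE 0.088, adjusted p 9.2e-07 by limma). Suclg2, the GTP-specific subunit of succinyl-CoA ligase, read 11.19, 11.31 and 11.14 in AB1 and 9.61, 9.28 and 9.56 in AC29 (difference -1.73, SE 0.108, adjusted p 1.7e-06 by limma). The other subunits of that ligase, Sucla2 (-0.67) and Suclg1 (-0.29), were higher in AB1 as well. Of 15 genes of mitochondrial biogenesis and mitochondrial DNA upkeep, 7 passed adjusted p alone, 3 towards AC29 and 4 towards AB1. Twnk, the mitochondrial DNA helicase (-1.08, adjusted p 6.8e-06 by limma), and Tfb2m, a mitochondrial transcription factor (-1.05, adjusted p 1.1e-05 by limma), were higher in AB1, Tfb2m by less than 2-fold without AC29 replicate 15 (-0.99). Tfb1m, a ribosomal RNA methyltransferase of the same family, was higher in AC29 (0.91). Of 10 genes of exchange across the membranes, 3 passed, led by the channel Vdac1 (0.47). The 1 subunit encoded by mitochondrial DNA that could be read, ND5, differed by 0.14 with an SE of 0.344 and did not pass.

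**Figure D5:**
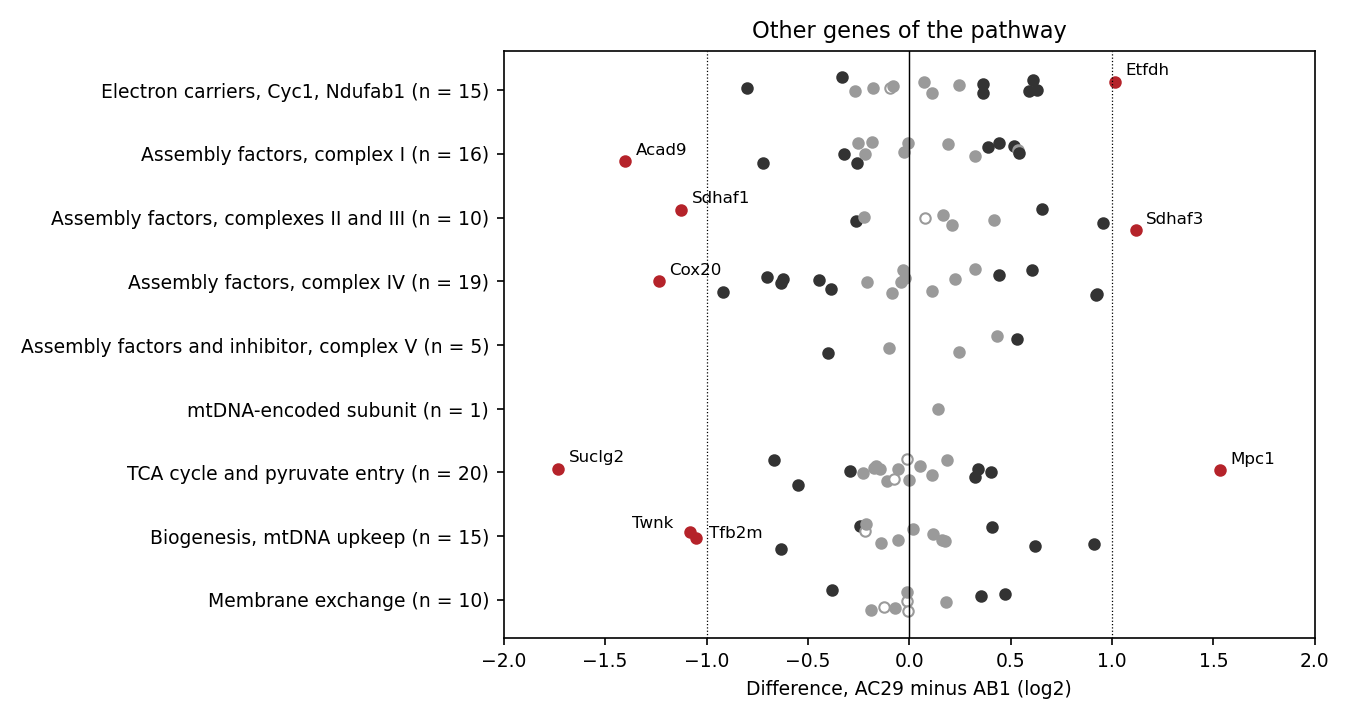
Difference in log2 signal, AC29 minus AB1, for 111 genes of 9 lists related to the respiratory chain; red points passed adjusted p under 0.05 and 2-fold (dotted lines), black points adjusted p only, grey points neither, and open points were above the floor in neither line. Suclg2 lies farthest towards AB1 (-1.73) and Mpc1 farthest towards AC29 (1.53).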

How the data were processed

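Per the labels' protocols, biotinylated cRNA was made from the total RNA of 3 flasks of each line and put on 1 array per flask. The deposited table holds log2 values per probe set, which the authors made with GCOS, RMA and Partek 6.4, tools that the submitters' processing notes name without role or order; the log2 scale was read from the notes and the range of the values. A genome build is not given in the sources used here.

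Of 45101 probe sets, 64 array controls were left out, and 34945 with 1 gene symbol in the platform annotation gave 18193 genes, each read by its probe set with the highest mean. Probe sets with several symbols (932) or none (9160) were not assigned. All probe sets outside the controls were fitted together with limma 3.58.1 (lmFit and eBayes, R 4.3.3, total degrees of freedom 8.92), and p-values were adjusted over all genes by Benjamini-Hochberg. Calls needed an adjusted p under 0.05, and under the 2-fold rule also a difference of at least 1 log2 unit. Arrays give no count of molecules, and the number of arrays limits the precision. RMA signals of different probe sets have different scales, so that no gene's level is set against another's; their rank serves only to choose the brightest genes.

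The members, the pathway and marker lists and the tests were chosen with earlier results of these data known. Genes were named by a rule: those past the 2-fold rule, up to 3 per direction and complex past adjusted p, the isoform groups, the 2 smallest differences per complex, probe sets that disagree, and genes past 2-fold in each list; other genes given by value were chosen after their values were seen. The fit was tested on simulated data for AC29 against AB1 over 18193 genes: of 50 genes changed by 0.5 log2 units 64% passed adjusted p, of 50 changed by 1 unit 96%, and 52% of the latter also passed the 2-fold rule. In the simulation 17993 genes were unchanged, whereas 39.1% of all genes passed adjusted p in the data. The adjustment depends on how many genes differ, so these shares do not carry over to the real comparison. Brown fat (1 of 5 markers past the 2-fold rule, none above the floor), macrophage (1 of 7, Cd14, higher in AB1) and endothelial markers (0 of 4 past adjusted p under limma's test) were also read. Alternatives covered normalisation, centring, the choice of probe set, the filter on dim genes, the variance model, thresholds and leaving out each array.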

Additional observations from a re-analysis of the deposited data

How the results depend on the processing

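With 3 arrays per line the members' median SE was 0.096 log2 units, and the direction of small differences is not settled. The intervals cover only the spread between flasks and arrays. The count of 3 members past the 2-fold rule was 1 when all probe sets of a gene were averaged (Ndufv3) and also 1 when those above the floor were averaged, an alternative chosen after seeing the data. It was 1 (Ndufa3) without probe sets whose names end in x_at, s_at or a_at, which takes out the 1 probe set of Ndufv3 and all bright ones of Cox5b. The ending a_at marks transcripts of 1 gene, and it stayed at 3 when only the x_at and s_at sets, which can cross-hybridise, were left out (also chosen after seeing the data). It was 0 by limma's treat (6.8% of all genes passed) and 7 at a minimum fold of 1.5 (21.9% of all genes). With every probe set on its own it was 8 of 164, against 10.3% of all 34945. The count stayed at 3 with any 1 array left out. The count of 36 past adjusted p alone became 62 of 164 probe sets with each read on its own, against 37.5% of all 34945. It was 22 in the unmoderated fit (32.8% of all genes) and 18 at adjusted p under 0.01 (29.7%). With 1 array left out it was 19 to 33. It was 21 without AB1 replicate 4 (33% of all genes), 19 without AB1 replicate 6 (33.4%) and 23 without AC29 replicate 13 (35.5%). The members' median ranged from -0.0030 (without AC29 replicate 14) to 0.14 with 1 array left out. The 9 pathway genes past 2-fold became 3 by treat and 27 at a fold of 1.5, and 8 to 12 with 1 array left out. Centring moved the split of member calls, from 23 higher in AC29 and 13 in AB1 to 24 and 9 when centred on the brightest genes, and to 19 and 14 when centred on all probe sets. Over all genes, 13106 of 34945 probe sets passed adjusted p with every probe set on its own, against 7105 of 18193 genes. No named gene with a call reversed. No paired analysis was possible because the lines share no replicate numbers.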
